A study of Mus musculus with 4 samples.

Results

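The insulin-like growth factor (IGF) axis was examined in the infarcted mouse heart through 10 genes: the ligands Igf1 and Igf2, the receptors Igf1r and Igf2r, and the IGF binding proteins Igfbp2 to Igfbp7. Members were all non-control probes that the array files name after one of these genes, which gave 21 of the 41174 probes. All 21 were well above background on every array and entered the test, so each of the 10 genes was measured, among 15058 genes tested in all. RNA came from tissue labelled as left ventricle of 8- to 10-week-old C57BL/6 mice, labelled male, at 7 days after permanent ligation of the left anterior descending artery, and an uninfarcted heart is not part of the comparison. The KDM5B-KO (KO) mice carried a CRISPR/Cas9 deletion in the JmjC domain of Kdm5b with a frameshift, with no cell-type-specific Cre named in the methods, and the WT mice were littermates without it. Each group had 2 one-colour arrays, numbered 2 and 3 in the titles and called WT 2, WT 3, KO 2 and KO 3. The comparison asks whether transcripts of this pathway differ when the histone demethylase KDM5B is missing.

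IGF1 and IGF2 are secreted growth factors that act through the tyrosine kinase receptor IGF1R, which drives the PI3K and AKT branch of growth and survival signalling. IGF2R has no kinase of its own and carries IGF2 to lysosomes for breakdown. The binding proteins hold the ligands in the extracellular space, where they can both shield them from the receptor and prolong their life, and proteases such as PAPPA cut the binding proteins and set the ligand free. In the injured heart, IGF1 is known as a product of macrophages and fibroblasts that supports cardiomyocyte survival.

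None of the 10 genes passed the test of KO against WT, and the members fell into 3 patterns. Igfbp4 and Igfbp6 were lower on both KO arrays than on both WT arrays, by 1.32 and 0.69 log2 units. Igf1, Igfbp2 and Igfbp3 differed more between the arrays of one genotype than between the genotypes, and by their brightest probes all of them were lowest on KO 2 and highest on KO 3. Igf2r, Igfbp5 and Igfbp7 stayed within 0.37 log2 units over the 4 arrays, and Igf1r and Igf2 lay between.

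Facts about the arrays come before these results, because libraries stood apart from their labels. All 4 samples are labelled male, yet all 4 probes for Xist, the RNA made from the inactive X chromosome, were well above background only on WT 2 and KO 2. Its brightest probe read 14.13 and 13.24 log2 units there against 1.92 on WT 3 and 2.01 on KO 3, before scaling. Of 7 probes for the Y-linked genes Ddx3y, Eif2s3y, Kdm5d and Uty, 6 were well above background only on WT 3 and KO 3. The array number therefore splits each genotype by this signal, and KO minus WT is also given within each number. KO 2 stood apart a second time: the atrial genes Myl7, Myl4 and Sln read 6.39, 5.46 and 5.95 log2 units there, against no more than 0.23 on the other arrays, although the tissue is labelled left ventricle. The targeted gene Kdm5b was lower on both KO arrays with both of its probes, by 0.996 and 1.19 log2 units, and its signal there was still well above background. The difference was uneven, at -1.53 and -1.92 for number 2 and -0.46 with both probes for number 3. In limma the unadjusted p was 0.072 and 0.060, and the adjusted p was 0.9999 for both. Of all tested probes, 10.9% had both KO arrays below both WT arrays. Where the Kdm5b probes lie relative to the deletion was not determined. The 75th percentile of the signal, to which values below are scaled, came to 876.3 and 976.1 on the WT arrays and 607.6 and 885.2 on the KO arrays.

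Values are log2 signal relative to that percentile, with number 2 before number 3 in each genotype, and differences are KO minus WT on the same scale. Signal of one probe was not set against that of another, because probes differ in brightness for the same amount of RNA. Where a gene had several probes, the brightest stands for it and the others follow. The limma adjusted p over all 28292 tested probes was 0.9999 for every member, and none passed an adjusted p of 0.05 with a fold change over 2, where 0% of tested genes did. At an unadjusted p under 0.05 the members also counted 0, against 1.43% of all tested genes. With the array number as a block that count was 1, Igfbp4, against 2.22%. Intervals are unadjusted 95% limma intervals, and all p-values measure only the spread between these samples, since the labels do not say that each array is a separate animal.

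Probes behind several of the genes on which the results turn are shown by the first 30 of their 60 bases, as the files give them 5′ to 3′. The sequences give part of the stretch that each probe carries. No probe shared a run of more than 10 of its 60 bases with a probe of another member on either strand. Matches to genes outside the members were not searched for.

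Igfbp4, brighter probe, chr11:98913334-98913393: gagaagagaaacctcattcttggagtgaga
Igfbp4, dimmer probe, chr11:98909591-98909650: atgatcacaggtgcctgcagaagcatatgg
Igf1, brightest probe, chr10:87393516-87393575: cgcaggatcctttgctgcttgagcaacctg
Igfbp2, chr1:72898677-72898736: catctcttctacaacgagcagcaggagact
Igfbp3, brightest probe, chr11:7106594-7106653: gcagttttccaaaaacacagatttcttttc

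These positions are on build mm9, as given in the files. Which exon or untranslated region each one lies in was not determined.

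**Figure D1:**
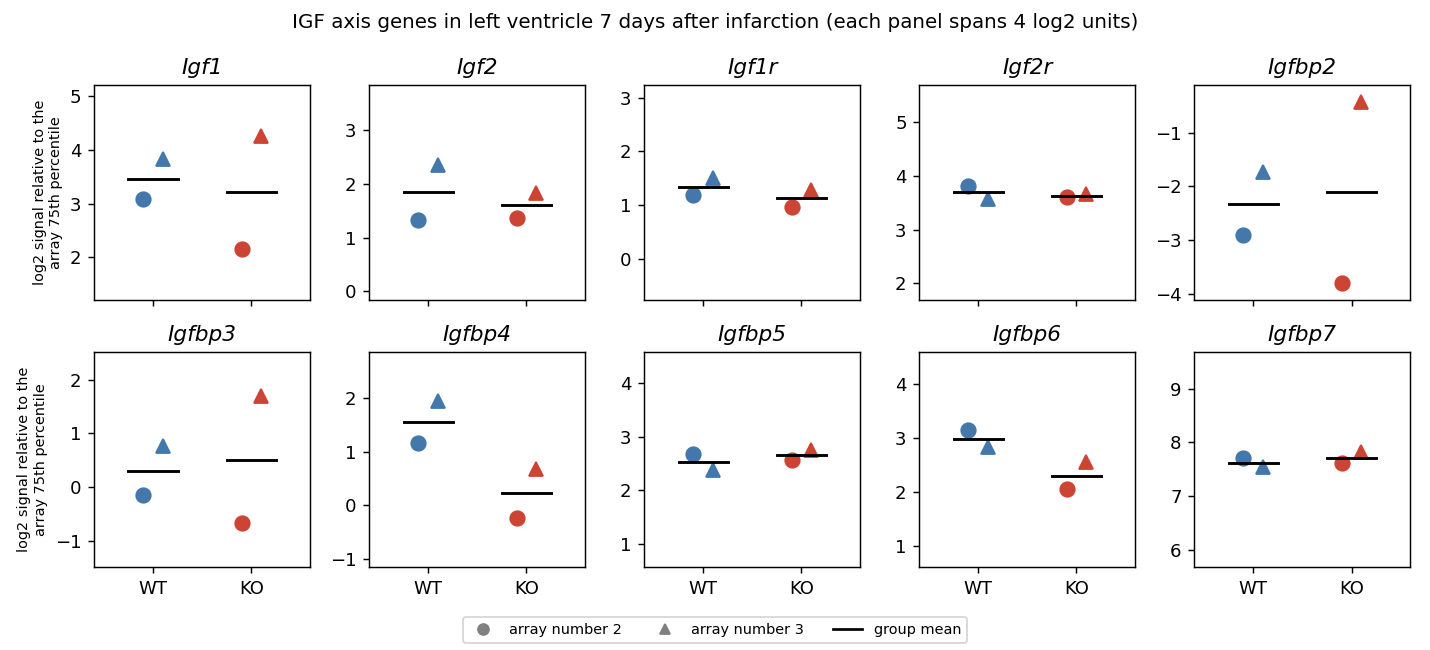
Log2 signal of the 10 genes on each array after scaling to its 75th percentile, with WT in blue and KO in red. Circles are arrays numbered 2, triangles are arrays numbered 3, the line is the mean of the 2 arrays, and each panel spans 4 log2 units. The WT and KO points separate only for Igfbp4 and Igfbp6, while Igfbp2 spreads over 3.37 log2 units between the 2 KO arrays.

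Among the ligands, Igf1 read 3.08 then 3.82 in WT, and 2.15 then 4.26 in KO. The KO arrays thus held both the lowest and the highest value, and the groups overlapped. The difference was -0.24 (SE 0.84, 95% interval -2.64 to 2.15, n = 2 and 2, limma adjusted p = 0.9999), and it turned from -0.92 at number 2 to 0.44 at number 3. The brightest probe was printed on 10 spots per array, whose SD was 0.037 to 0.048 log2 units, far under the spread between arrays. The other Igf1 probes differed by -0.34, -0.30 and -0.68, and each was lowest on KO 2. On one of them WT 3 lay above KO 3, at -0.62 against -0.72.

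Igf2, the fetal growth factor that is imprinted in mice, was measured at chr7:149836673-149836709 and read 1.34 and 2.35 in WT against 1.37 and 1.84 in KO. WT 2 and KO 2 were nearly level, and both lay below both arrays numbered 3. The difference was -0.24 (SE 0.45, 95% interval -1.53 to 1.05), with 0.04 at number 2 and -0.51 at number 3. The second Igf2 probe gave -0.39, and its KO values lay within the WT range except on KO 2, which read -0.89 against -0.85 on WT 2. Spots of the brighter probe, 8 to 10 of which were usable per array, had an SD of 0.023 to 0.052.

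The receptors varied little. Igf1r, the signalling receptor, was measured at chr7:75376998-75377057 and read 1.19 and 1.50 on the WT arrays and 0.97 and 1.28 on the KO arrays. The difference was -0.21 (SE 0.26, 95% interval -0.95 to 0.52), and it was the same size, -0.21, within both array numbers. The groups still overlapped, since KO 3 lay above WT 2. The interval printed here leaves out a change of 2-fold, but narrowly on its lower side. With quantile normalization the difference was -0.25 (SE 0.27), and no interval is given for that setting. The remaining 3 Igf1r probes differed by -0.11, 0.03 and -0.21, and at number 2 their signs were mixed, with 0.12, 0.24 and -0.42.

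Igf2r, which clears IGF2, was measured by a probe of which the files place 11 bases, at chr17:12875253-12875263, and read 3.81 then 3.57 in WT, and 3.60 then 3.67 in KO. Both KO values lay inside the WT range. The difference was -0.06 (SE 0.22, 95% interval -0.69 to 0.57), an interval that again leaves out a 2-fold change in either direction. The range over the 4 arrays, 0.24 log2 units, was smaller than for all but 10.0% of the tested genes.

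Igfbp4, which in most settings restrains IGF action and is the main substrate of PAPPA, had the largest difference of the 10. Its brighter probe read 1.16 and 1.93 in WT against -0.23 and 0.68 in KO. Each KO value was under each WT value. WT averaged 1.55 ± 0.55 and KO averaged 0.22 ± 0.65 (SD, n = 2 each), a signal 2.50-fold lower in KO. The difference of -1.32 (SE 0.48, 95% interval -2.70 to 0.05) did not pass the test, with an unadjusted p of 0.056 and an adjusted p of 0.9999 in limma. With the array number as a block its interval was -2.04 to -0.61 (SE 0.24), with an unadjusted p of 0.0080 and an adjusted p of 0.9949 in limma. An exact permutation test with 2 arrays against 2 cannot give a two-sided p under 0.333. Of all tested genes, 1.16% had a lower difference.

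The lower Igfbp4 signal was present within both array numbers, at -1.40 for number 2 and -1.25 for number 3. The second probe read 0.29 and 0.87 on the WT arrays and -0.55 and 0.14 on the KO arrays. Its difference was -0.78 (SE 0.39), with -0.84 at number 2 and -0.73 at number 3, so both probes separated the groups the same way. The size rested on single arrays: the brighter probe gave -0.86 without KO 2 and -0.94 without WT 3, both under a 2-fold change, against -1.71 without WT 2 and -1.78 without KO 3.

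Igfbp6, a binding protein that prefers IGF2 over IGF1, read 3.15 then 2.84 in WT, and 2.05 then 2.55 in KO. KO and WT values did not overlap, with KO the lower. The mean was 2.99 ± 0.22 for WT and 2.30 ± 0.36 for KO (SD, n = 2 each), 1.61-fold lower in KO. The difference was -0.69 (SE 0.30, 95% interval -1.53 to 0.15, unadjusted p = 0.085 and adjusted p = 0.9999 in limma). It was uneven, with -1.10 at number 2 and -0.28 at number 3. Leaving KO 2 out gave -0.44. Only 1 probe measured this gene.

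Igfbp4 and Igfbp6 were the 2 of 10 members with both KO arrays below both WT arrays, and 8.89% of all tested genes did the same. The opposite order held for 0 members and for 13.3% of all tested genes. A fold change over 2 in either direction was seen for 1 member and for 3.5% of tested genes. That member, Igfbp4, was lower in KO, as were 2.35% of tested genes at that size, and 0 members were higher by as much, where 1.15% of genes were. Whether the members stand apart from the other genes was not tested.

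Igfbp2, which binds both ligands and is abundant in fetal tissue, read -2.91 and -1.73 in WT against -3.80 and -0.42 in KO. Both KO arrays lay outside the WT range, on opposite sides. The difference between genotypes was 0.21 (SE 1.32, 95% interval -3.56 to 3.97), with -0.89 at number 2 and 1.31 at number 3. Its range of 3.37 log2 units over the arrays was larger than that of 97.7% of tested genes.

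Igfbp3, the main IGF carrier of the circulation, read -0.15 and 0.76 on the WT arrays and -0.68 and 1.70 on the KO arrays. The difference was 0.20 (SE 0.95, 95% interval -2.51 to 2.92), with -0.53 at number 2 and 0.93 at number 3. Again the KO arrays flanked both WT arrays. The other Igfbp3 probes differed by -0.14 and 0.51, and both were highest on KO 3. One of them did not place KO 2 lowest, at -4.18 against -4.22 on WT 2.

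Igfbp5, which binds to extracellular matrix, and Igfbp7, a low-affinity member of the wider family that is strong in endothelium, were steady. Igfbp5, at chr1:72904829-72904888, read 2.67 then 2.39 in WT, and 2.57 then 2.76 in KO, a difference of 0.13 (SE 0.24, 95% interval -0.54 to 0.81). Its second probe was higher on both KO arrays, by 0.30. Igfbp7, at chr5:77778355-77778414, read 7.70 and 7.54 in WT against 7.61 and 7.82 in KO, a difference of 0.10 (SE 0.22, 95% interval -0.54 to 0.73). Its direction depended on the scaling, since it became -0.26 with quantile normalization and with the authors' table, so no direction is given. For both genes the interval printed here leaves out a change of 2-fold. For Igfbp7 that is stated only for the scaling used here. With quantile normalization its SE rose from 0.22 to 0.37, and the authors' table also gave an SE of 0.37. No interval is given for those settings, so a 2-fold decrease of Igfbp7 is not excluded there. Igfbp2 and Igfbp5 are next to each other on chromosome 1 (GRCm38.p6), and they varied over the arrays by 3.37 and 0.37 log2 units.

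**Figure D2:**
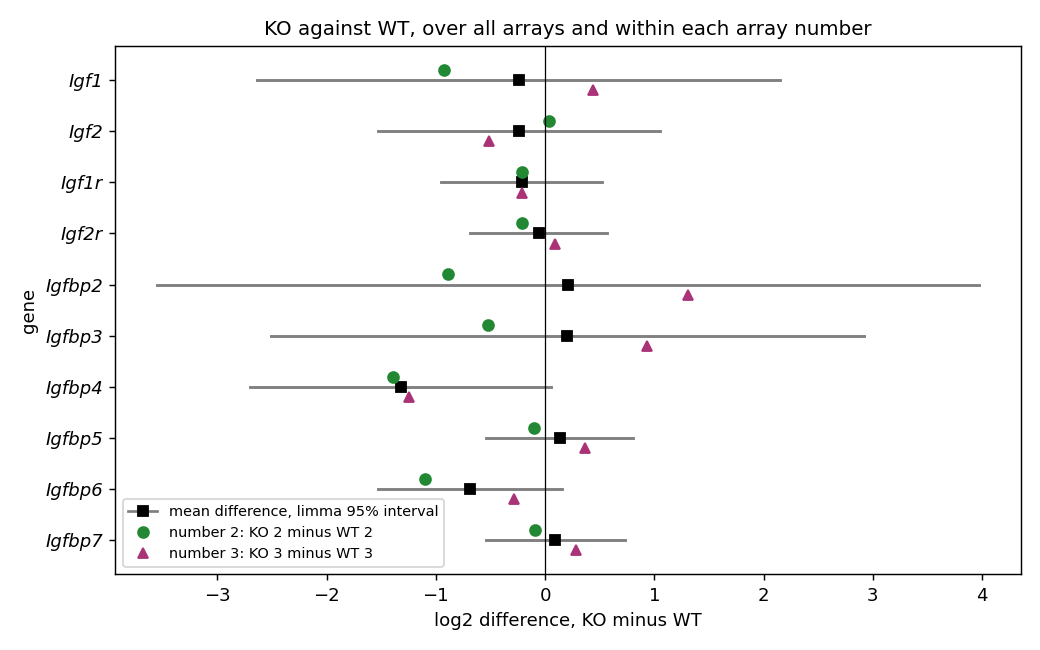
Log2 difference, KO minus WT, of the 10 genes: squares are means with the 95% limma interval, circles are KO 2 minus WT 2, and triangles are KO 3 minus WT 3. Every interval includes 0, and the within-number values lie on the same side of 0 only for Igf1r, Igfbp4 and Igfbp6.

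Taking the 10 members within array numbers, 7 had opposite signs at numbers 2 and 3, against 55.8% of all tested genes, and 3 were lower in KO at both, as were 18.3% of all tested genes. None of the 10 was higher in KO at both, against 25.8%. The median difference of the members was -0.37 at number 2 and 0.19 at number 3, against 0.04 and 0.03 for all tested genes. Over all arrays it was -0.14 for the members and 0.04 for all tested genes. Arrays numbered 3 read higher than arrays numbered 2 in both genotypes for 6 members: Igf1, Igf2, Igf1r, Igfbp2, Igfbp3 and Igfbp4. The share of all tested genes that did so was not determined. Over all 28292 tested probes, the deviations of WT 2 and KO 2 from their group means correlated at 0.57. For Igf1r the step from number 2 to number 3 was 0.31 log2 units in both genotypes. For Igfbp2 it was 1.17 in WT and 3.37 in KO. The median range of the members over the 4 arrays was 1.05 log2 units, against 0.74 for all tested genes.

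**Figure D3:**
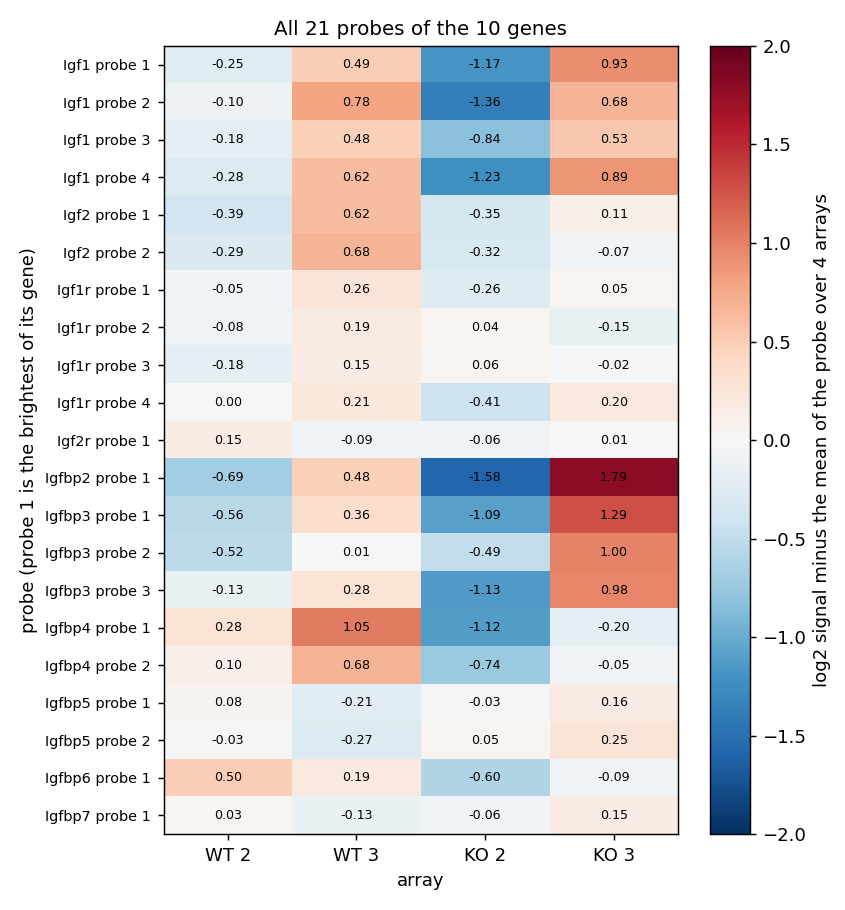
Log2 signal of each of the 21 probes on each array, minus the mean of that probe over the 4 arrays. Red is above and blue below that mean, probe 1 is the brightest of its gene, and the number in each cell is the value. Both Igfbp4 probes are negative on both KO arrays and positive on both WT arrays, while the 4 Igf1 probes are all lowest on KO 2.

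Cell-type markers moved over the same arrays, and in bulk tissue fewer cells of a type and less RNA per cell cannot be told apart. Sums of marker signal are in units of each array's 75th percentile. The 8 cardiomyocyte markers summed to 1921 on KO 2, 1032 on WT 2, 579 on WT 3 and 414 on KO 3. The 6 activated fibroblast markers, among them Postn, Lox and Tnc, ran the other way, at 68.8 on KO 2, 165 on WT 2, 198 on WT 3 and 306 on KO 3. The 8 macrophage markers took the same order, from 182 on KO 2 to 392 on KO 3, as did the 4 epicardial markers, from 2.77 to 24.8. Igf1, Igfbp2 and Igfbp3, by their brightest probes, took that order too. Some single markers broke it, in log2 units. Fap and Mrc1 were highest on WT 3, at 1.77 and 1.93. Cd14 was highest on WT 2, at 3.16 against 3.15 on KO 3. Lyz2, which led the macrophage sum, read 7.94 on WT 2 and 7.92 on WT 3. Wt1 was lowest on WT 2, at -0.89 against -0.48 on KO 2. The other activated fibroblast, macrophage and epicardial markers kept the order.

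The fibroblast, endothelial and smooth muscle sums moved less. The 8 fibroblast markers lay between 792 on KO 2 and 1052 on WT 2, and the 8 endothelial markers between 61.5 on KO 3 and 93.6 on KO 2. The 7 smooth muscle and pericyte markers lay between 59.0 on WT 2 and 65.3 on KO 2, but single markers in that sum moved in opposite directions. Cnn1 read 1.91 log2 units on KO 2 and 4.42 on KO 3, whereas Abcc9 read 2.30 and 0.16, and Kcnj8 and Rgs5 were also lower on KO 3. The 4 atrial markers summed to 794 on KO 2 and to between 374 and 450 on the others, a sum led by Nppa. Their mean log2 level, in which Myl7, Myl4 and Sln count equally, was 6.76 on KO 2 and between 0.06 and 1.42 on the others. Every marker of these lists was well above background on all arrays except Sln. By sum, the cardiomyocyte, activated fibroblast, endothelial, macrophage and epicardial lists placed KO 2 and KO 3 on opposite sides of both WT arrays, whereas Igfbp4 and Igfbp6 were lower on both. The endothelial sums were close, at 61.5 on KO 3 against 63.1 on WT 2. Single markers of these lists that did not do so were Vwf, Emcn, Cdh5, Tek, Fap, Cd14, Mrc1 and Wt1. The fibroblast sum was lower on both KO arrays than on both WT arrays, at 792 and 928 against 929 and 1052. Their mean log2 level was also lower on both, at 4.73 and 5.11 in KO against 5.24 and 5.42 in WT, with 7 of the 8 markers lower on KO 2 than on WT 2 and 6 of 8 lower on KO 3 than on WT 3. Within the fibroblast list, only Dcn, Lum and Pdgfra were lower on both KO arrays than on both WT arrays, as Igfbp4 and Igfbp6 were. Col3a1, Ddr2 and Tcf21 overlapped between the groups. Gsn was highest on KO 2, at 6.90, and Col1a2 on KO 3, at 8.662 against 8.661 on WT 2. Outside that list, the smooth muscle and pericyte marker Des was also lower on both KO arrays, at 4.68 and 4.41 against 4.81 and 4.80 in WT. The part of the cell types in the values of the members was not tested.

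**Figure D4:**
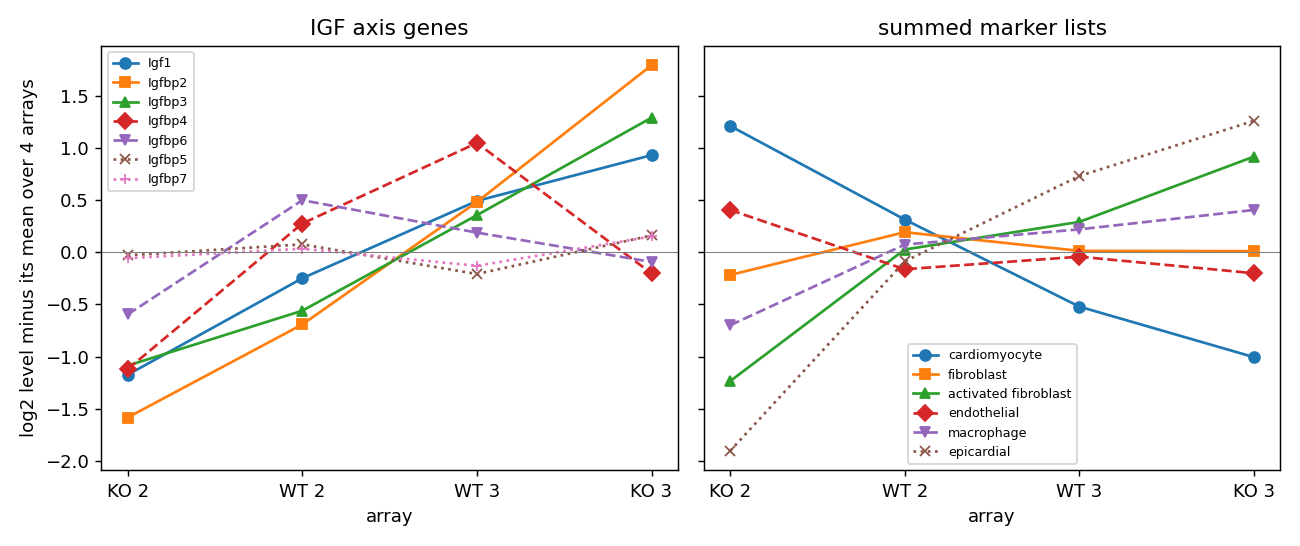
Log2 level minus its mean over the 4 arrays, for 7 of the genes on the left and for summed marker lists on the right. Arrays are placed from the highest to the lowest cardiomyocyte sum, and lines only join the points of one gene or list. Igf1, Igfbp2 and Igfbp3 climb from KO 2 to KO 3 as the activated fibroblast, macrophage and epicardial sums do, while Igfbp4 and Igfbp6 are highest on a WT array. The epicardial sum is led by Msln.

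The other genes of the pathway were taken by role. Of 37 listed genes, 31 were tested, 0 were called higher and 0 lower, and 0 reached an unadjusted p under 0.05 in limma, against 1.43% of all tested genes. KO arrays lay above WT arrays for 3 of the 31, against 13.3% of all tested genes, below for 1, against 8.89%, and overlapped for 27. Their median difference was 0.04, the same as over all tested genes. Igfbp1, Igfals, Igfbpl1, Pappa2 and Igf2bp1 were too dim to test, and Irs2 was not analysed here.

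Among the proteins that release or guard the ligands, Pappa, the protease of IGFBP4, read -0.10 and 0.96 on the WT arrays and -1.70 and 1.87 on the KO arrays. It had the array order of Igf1 and Igfbp2 and not that of Igfbp4, its substrate, and its difference was -0.35 (SE 1.37). Stc2, which inhibits PAPPA, differed by -0.54 and overlapped between the groups. Htra1, a secreted serine protease, read 4.61 and 4.65 in WT and 4.96 and 4.80 in KO, a difference of 0.25 with both KO arrays above both WT arrays.

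Of the receptor and signalling genes, the insulin receptor Insr differed by 0.06, its adaptor Irs1 by 0.02, and Grb10, an adaptor that dampens the receptor, by -0.20, all with overlapping groups. Akt1, the kinase downstream, read 4.38 then 4.30 in WT, and 5.19 then 4.55 in KO. The KO values were the higher ones without overlap, with a difference of 0.53 (SE 0.31) in all, 0.81 at number 2 and 0.25 at number 3. Foxo1, which AKT keeps out of the nucleus, differed by -0.01, and Ghr, the growth hormone receptor, by 0.17. Gsk3b and Jak2, named after their values were seen, complete the genes whose groups did not overlap, at 0.15 and -0.49.

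H19, the imprinted RNA beside Igf2 that is made from the other parental copy, read 2.15 and 2.34 in WT against 0.11 and 3.03 in KO. Its KO arrays flanked both WT arrays, and its difference was -2.04 at number 2 and 0.69 at number 3. The difference of Igf2 was 0.04 and -0.51 at these numbers.

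The promoters of the members differed in CpG content, a feature that the choice of members did not use. In the RefSeq windows of 300 bases around the start site (GRCm38.p6), all members had at least 1 window, and the motif CG was counted on one strand, since it reads the same on both. Igf1r held 48 CG, a count that 1.22% of all 32851 windows reach. Igfbp4 held 27, reached by 15.5% of windows, and Igfbp6 held 8, reached by 48.6%, where the median window holds 7. Igf1 held 6, Igfbp3 held 37, Igfbp7 held 33, Igf2r held 34 and Igfbp5 held 10. Igfbp2 held 18 and 14 in its 2 windows, and Igf2 held from 2 to 24 in its 4 windows. Whether CpG content bears on the differences between KO and WT was not tested.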

How the data were processed

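Total RNA of 4 samples labelled as left ventricle was marked with Cy3 and hybridised to Agilent Whole Mouse Genome arrays on 1 slide in 1 scan. WT arrays lay at positions 1 and 2 and KO arrays at positions 3 and 4, so position and genotype cannot be told apart. The authors deposited the intensity of each spot from Agilent Feature Extraction 10.7.3.1 (version per the file headers), already background-subtracted and detrended, on a grid annotated on mm9. They also deposited a table of log2 values made per the methods with GeneSpring, whose normalization is not stated. Its columns each had a median of 6.78 and followed the quantile-normalized log2 signal of the scanner files.

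Control spots and 92 to 116 flagged spots per array were left out, spots of a probe were averaged, and log2 processed signal was shifted by the 75th percentile of each array. No spot was saturated, and 68.1% to 72.0% of probes were well above background. A probe was tested when well above background on both arrays of a group, which kept 28292 probes. KO and WT were compared with limma 3.58.1 in R 4.3.3 (lmFit, eBayes) with Benjamini-Hochberg adjustment over all tested probes, and the fit was tested on simulated data. A gene takes the values of its tested probe with the highest mean. Groups and array numbers came from the sample titles. Of all probes, 31437 carried a current RefSeq symbol (GRCm38.p6), 2200 an outdated one, and 91 were named through their accession. The text names Kdm5b, all members, 13 pathway genes chosen by role (3 of which were not tested) and any pathway gene called. Gsk3b and Jak2 were named after their values were seen, and the genes too dim to test are listed in full. The members, lists and tests were chosen with earlier results of these data known. With 2 arrays per group, their number limits the precision of every value. Alternatives were normexp, quantile and median scaling, other filters on dim probes, the authors' table, a replicate block, arrays left out, the methods' t-test and the mean of all probes.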

Additional observations from a re-analysis of the deposited data

How the results depend on the processing

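No member, no pathway gene and no probe was called under any alternative that adjusted p-values. The methods' t-test counted 88 probes at their threshold without adjustment, none of them of a member or pathway gene, and 0 after Benjamini-Hochberg. Over the settings that kept all 4 arrays, 78 of 80 member differences kept their direction. Igfbp7 reversed to -0.26 with quantile normalization and to -0.26 with the authors' values. Igfbp4 ranged from -1.34 to -1.05 and Igfbp6 from -0.76 to -0.66 in these settings. Normexp raised the median difference of all probes from 0.02 to 0.13, and the other scalings moved it less.

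With arrays left out in turn, 30 of 40 differences kept their direction, in fits that assume a lone array varies as the other genotype does. The ranges were -1.78 to -0.86 for Igfbp4, -0.94 to -0.44 for Igfbp6 and -0.37 to -0.06 for Igf1r, which kept their sign. They were -1.30 to 0.81 for Igf1, -0.74 to 0.27 for Igf2, -0.18 to 0.060 for Igf2r, -1.48 to 1.90 for Igfbp2, -0.98 to 1.39 for Igfbp3, -0.0098 to 0.27 for Igfbp5 and -0.0089 to 0.20 for Igfbp7, which did not. The count of members with a fold change over 2 was 1 and ranged from 0 to 3, with 0 without WT 3, 2 without KO 2 and 3 without KO 3. The cause was not tested.

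The array numbers are not stated to pair the samples. Over 28292 probes the deviations of WT 2 and KO 2 from their group means correlated at 0.57. With the array number as a replicate block, the difference of Igfbp4 was -1.32 (SE 0.24, unadjusted p = 0.0080 and adjusted p = 0.9949 in limma), and again 0 members were called, with 1 at an unadjusted p under 0.05 against 0 without the block. A pair of counts was repeated under other scalings chosen after seeing the data: members with one sign at both numbers were 4 with normexp against 3, and members with both KO arrays below both WT arrays were 3 against 2.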
